A study of Mus musculus with 8 samples.

Results

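Immunoglobulin gene segments are the V, D, J and constant pieces from which the antibody heavy chain and the kappa and lambda light chains are assembled. The 64 segments described here are those named as V, D, J or constant segments in the authors' deposited table, Ighm left out, with at least 20 exonic read counts summed over all 8 libraries. They were 64 of 153 segments with such a name and of 47937 genes in the count tables. The heavy-chain locus held 25 of them (19 V, 1 D and 3 J segments and the constant segments Ighd and Ighg2b), the kappa locus 37 (31 V and 5 J segments and Igkc) and the lambda locus 2 (Iglv1 and Iglc3). They were chosen by this summed count, which is therefore given as a description only, and the difference between the treatments was not part of the rule. Nearest to the threshold, Igkv2-112 had 20, Igkv4-53 had 21 and Igkv6-29 had 21 counts, while Igkv3-1 with 19 and Igkv10-95 and Igkv4-58 with 18 each fell short. A further 18 segments, 17 heavy-chain V segments and Igkv3-12-1, also reached 20 counts but carry their names only in the GENCODE vM21 annotation, and their values are given apart.

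The study set 4 libraries of cells treated with 0.5 µM dTAG-13 for 6 h against 4 libraries of cells treated with DMSO for 6 h, which the sample titles list as 0 h. All 8 came from cultured mouse pro-B cells transformed with the Abelson murine leukaemia virus (A-MuLV), of genotype EBF1-dTAG_N, in which an introduced, modified gene stands in for the cells' own EBF1. EBF1 is a transcription factor that commits progenitors to the B lineage, and dTAG-13 is a small molecule that directs a tagged protein to degradation. The series' title names EBF1 degradation as its subject, protein levels were not measured in these files, and whether the cells are 1 clone was not given in the sources used here.

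In developing B cells, V, D and J segments lie as separate, unrearranged pieces until the RAG recombinase joins them, the heavy chain before the light chains. Unrearranged segments are also transcribed, as so-called germline transcripts, and the kappa locus gives germline transcripts that run through the J segments into Igkc. Counts per segment do not tell germline from rearranged transcripts, and transformed pro-B cells can carry either.

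The libraries held 28982316 to 38999496 exonic reads, and the 64 segments took 0.0092% to 0.01197% of them. Values are given as CPM, read counts scaled to a common library size with TMM factors, where 1 CPM is 28.95 to 39.21 reads. With no outside standard they are shares of the RNA in a library, and fewer cells that transcribe a segment and less of its RNA per cell cannot be told apart. Within each group no library was a copy of another. Replicates differed by 4.78 to 13.5 times the variance that counting alone gives (chi-square per degree of freedom). Gm26917 and Gm42418, which overlap ribosomal RNA sequence, took 25.73% to 29.27% of exonic reads. Both are included in the chi-square figure, which is taken over all genes with enough counts and so does not describe the spread of the segments alone. The cells were checked against defining markers. Ighm, the mu heavy chain, measured 1322 ± 45.6 CPM in dTAG-13 libraries and 1326 ± 23.9 CPM in DMSO libraries (SD, n = 4 each). The T-cell receptor partners Cd3d, Cd3e and Cd3g had 0 exonic counts in all 8. Of the pro-B cell markers, Kit had 0 exonic counts in all 8 libraries and of the 9 tested 8 fell (edgeR), against 14.0% of all genes tested.

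Segments of a family are close copies, which limits how surely a read can be given to one of them. Of the 51 V segments, 18 were at least 95% identical to their nearest other annotated transcript, and the median identity was 92.3%. The sequences below are the last 294 to 300 bases of GENCODE vM21 transcripts on GRCm38, all coding for the variable domain, shown for V segments on which the results turn. Capitals mark bases within a 50-base window that occurs in another annotated gene as well, and lower case marks bases outside any such window. The stretch of Ighv1-74 lies at chr12:115802648-115802947, that of Ighv1-63 at chr12:115495625-115495924, that of Ighv1-47 at chr12:114991108-114991401 and that of Igkv1-35 at chr6:70010949-70011248, all exonic, on the minus strand and overlapped by no other annotated gene.
Ighv1-74: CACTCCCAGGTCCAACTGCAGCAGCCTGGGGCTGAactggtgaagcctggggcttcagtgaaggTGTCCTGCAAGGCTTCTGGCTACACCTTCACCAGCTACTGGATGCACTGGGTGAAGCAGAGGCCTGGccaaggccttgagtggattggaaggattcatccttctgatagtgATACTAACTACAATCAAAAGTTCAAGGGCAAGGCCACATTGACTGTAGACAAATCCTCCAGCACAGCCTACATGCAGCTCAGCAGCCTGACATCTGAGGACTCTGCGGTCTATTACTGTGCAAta
Ighv1-63: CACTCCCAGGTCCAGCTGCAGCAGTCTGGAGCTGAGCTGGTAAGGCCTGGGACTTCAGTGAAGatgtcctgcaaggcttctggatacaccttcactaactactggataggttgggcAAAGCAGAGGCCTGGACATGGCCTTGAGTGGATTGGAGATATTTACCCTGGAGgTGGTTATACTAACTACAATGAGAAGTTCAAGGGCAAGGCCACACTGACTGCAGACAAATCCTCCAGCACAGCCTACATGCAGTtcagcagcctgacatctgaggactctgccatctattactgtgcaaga
Ighv1-47: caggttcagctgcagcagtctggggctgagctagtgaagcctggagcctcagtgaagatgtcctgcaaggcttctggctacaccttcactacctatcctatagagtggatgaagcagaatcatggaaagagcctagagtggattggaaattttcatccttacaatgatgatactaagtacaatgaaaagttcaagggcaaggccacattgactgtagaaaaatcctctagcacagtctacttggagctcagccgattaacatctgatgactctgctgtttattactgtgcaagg
Igkv1-35: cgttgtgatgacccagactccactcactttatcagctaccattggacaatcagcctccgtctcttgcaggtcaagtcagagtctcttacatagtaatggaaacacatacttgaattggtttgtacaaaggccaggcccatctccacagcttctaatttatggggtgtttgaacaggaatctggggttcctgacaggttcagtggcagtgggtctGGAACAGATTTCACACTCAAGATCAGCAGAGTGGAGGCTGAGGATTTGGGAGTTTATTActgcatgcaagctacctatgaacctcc
Of the 50-base windows of the whole gene, 40.3% were shared for Ighv1-74, 34.1% for Ighv1-63, 0% for Ighv1-47 and 2.76% for Igkv1-35. The next set, from the same source, shows how short the D and J pieces are: the D segment is 23 bases long and the 5 kappa J segments are 38 to 43 bases long. Capitals mark the letters TTCGG in kappa J segments, found in 4 of the 5 annotated and not in Igkj3, searched on both strands.
Ighd1-1: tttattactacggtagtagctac
Igkj1: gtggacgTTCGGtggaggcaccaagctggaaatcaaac
Igkj2: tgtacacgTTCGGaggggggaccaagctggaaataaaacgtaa
Igkj3: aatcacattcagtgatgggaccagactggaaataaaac
Igkj4: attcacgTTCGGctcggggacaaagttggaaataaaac
Igkj5: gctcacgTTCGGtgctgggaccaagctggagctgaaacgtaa
Ighd1-1 lies at chr12:113482170-113482192 on the minus strand, and the kappa J segments lie between chr6:70722562-70722599 (Igkj1) and chr6:70723886-70723927 (Igkj5) on the plus strand, inside the predicted gene Gm30211.

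Several heavy-chain V segments of family 1 were higher after dTAG-13. Of the 12 heavy-chain V segments with enough counts to be tested, 5 rose and 0 fell (edgeR quasi-likelihood test, adjusted p below 0.05 over all genes), namely Ighv1-74, Ighv1-63, Ighv1-77, Ighv1-64 and Ighv1-69. At an unadjusted p below 0.05 edgeR had 6 higher and 0 lower, and DESeq2 called 6 higher and 0 lower. Over all 64 segments, 41 were tested, 7 rose and 1 fell, and 33 did not pass. Over all 12889 genes tested, 28.3% changed, with 14.3% higher and 14.0% lower, beside 19.5% of the tested segments that changed and 41.7% of the tested heavy-chain V segments that rose. In 9 of the 41 tested segments every dTAG-13 library lay above every DMSO library, and in 1 every one lay below. Over all genes tested these shares were 14.2% and 13.5%. These counts, and the medians over the same segments, describe those that passed the low-count filter, which asks for its minimum in 4 libraries. Ighv1-74, Ighv1-64 and Ighv1-69 reached the minimum in all 8 libraries, while Ighv1-63 reached it in 4 dTAG-13 libraries and 1 DMSO library and Ighv1-77 in 4 dTAG-13 libraries and 2 DMSO libraries, so both entered the test through the group in which they are high. The median log2 fold change was 0.66 over the 12 heavy-chain V segments, 0.13 over the 41 segments and -0.003 over all genes tested. Precision was lower for the segments, whose standard errors (log2 scale) had a median of 0.375, against 0.0712 over all genes.

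Ighv1-74, whose product is a heavy-chain variable domain, was the most abundant heavy-chain V segment per length of annotated exon, at 26.4 ± 1.26 CPM per kb in dTAG-13 libraries and 16.7 ± 3.14 CPM per kb in DMSO libraries (SD, n = 4 each). It measured 8.67, 9.18, 9.60 and 9.60 CPM in the dTAG-13 libraries, against 4.63, 7.21, 6.21 and 5.43 CPM in the DMSO libraries. Every dTAG-13 library lay above every DMSO library, with a log2 fold change of 0.66 ± 0.12 (SE, edgeR adjusted p = 9.27e-05). Its share of all counts in the 19 heavy-chain V segments was 40.6% in dTAG-13 libraries (95% exact binomial interval 39.0% to 42.3%) and 39.3% in DMSO libraries (37.2% to 41.5%) and the intervals overlapped. The intervals pool the reads of 4 libraries and cover counting error only.

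The segments with the greatest fold change in this class were low ones. Ighv1-63 measured 0.761, 1.02, 0.805 and 0.600 CPM in the dTAG-13 libraries, against 0.0691, 0.069, 0.313 and 0.162 CPM in the DMSO libraries, a log2 fold change of 2.28 ± 0.45 (SE, edgeR adjusted p = 0.000292). These values rest on 120 counts in the dTAG-13 libraries and 22 in the DMSO libraries, and the groups did not overlap. Without DMSO replicate 3, its highest control, the log2 fold change was 2.89. Ighv1-77 measured 1.28, 1.07, 1.09 and 0.828 CPM in the dTAG-13 libraries, against 0.449, 0.104, 0.391 and 0.0541 CPM in the DMSO libraries, a log2 fold change of 2.09 ± 0.44 (SE, edgeR adjusted p = 0.000478). Its DMSO libraries spread over a wide range, yet all lay below the lowest dTAG-13 library.

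Ighv1-64 stood at 1.44, 1.48, 1.58 and 1.34 CPM in the dTAG-13 libraries, against 0.587, 0.690, 0.756 and 0.324 CPM in the DMSO libraries, with a log2 fold change of 1.31 ± 0.30 (SE, edgeR adjusted p = 0.00127). Ighv1-69 stood at 2.36, 2.42, 2.0 and 2.09 CPM in the dTAG-13 libraries, against 1.49, 1.66, 1.41 and 1.38 CPM in the DMSO libraries, with a log2 fold change of 0.58 ± 0.21 (SE, edgeR adjusted p = 0.0376). Both were separate between the groups. The call of Ighv1-69 was lost without dTAG-13 replicate 1 or 2 or without DMSO replicate 1, 3 or 4 (adjusted p between 0.0592 and 0.0911), while its log2 fold change stayed between 0.54 and 0.59 in these 5 fits. For these 5 segments 33.4% to 40.3% of the 50-base windows occur in another gene, so how much each copy gave to its neighbours' counts is uncertain.

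Ighv1-47 has no 50-base window shared with another annotated gene, as the sequence above shows by its lower case. It measured 1.74, 1.40, 1.66 and 1.63 CPM in the dTAG-13 libraries, against 1.04, 0.863, 0.887 and 1.24 CPM in the DMSO libraries. The groups did not overlap, and its log2 fold change of 0.67 ± 0.26 just missed the threshold (SE, edgeR adjusted p = 0.0523). In the authors' deposited table it has a log2 fold change of 0.46 with an adjusted p below 0.05. Each segment called here also had a value nearer 0 there, such as Iglc3 at 1.33 there and 2.10 here. The sizes of the 2 fits are therefore not comparable.

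**Figure D1:**
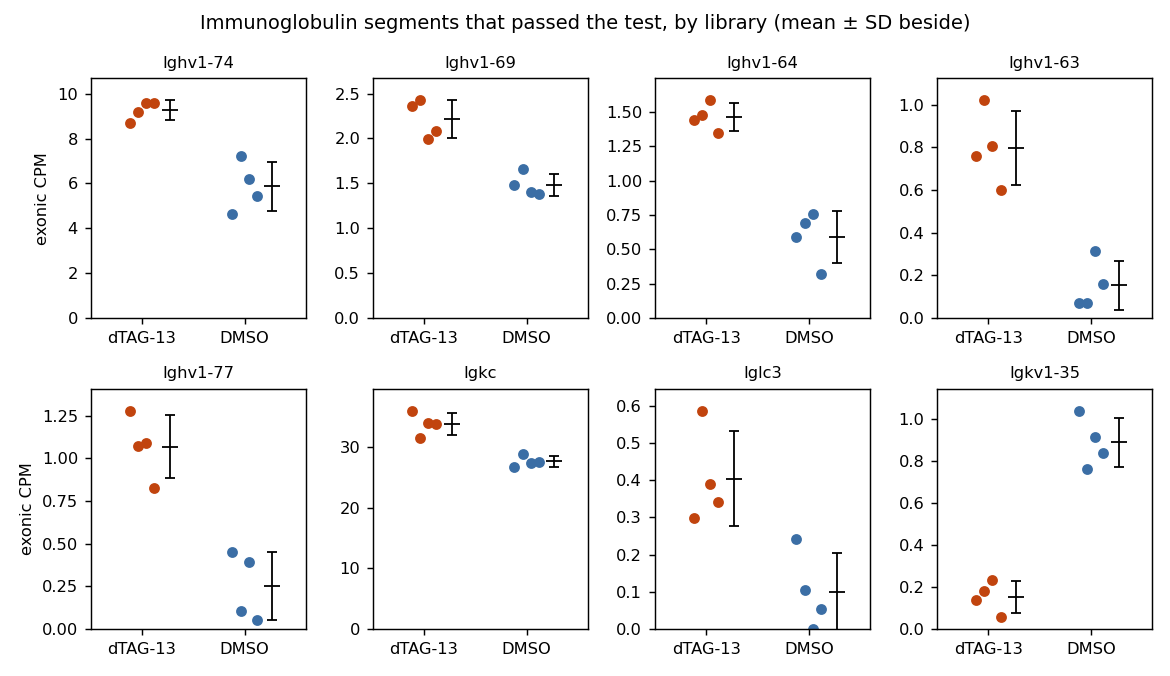
Exonic CPM of the 8 immunoglobulin segments with an adjusted p below 0.05, 1 point per library on a linear axis from 0, dTAG-13 left and DMSO right, with mean and SD (n = 4) beside the points. In 7 panels the dTAG-13 points lie above all DMSO points, and for Igkv1-35 they lie below. Among all genes tested, 14.2% lie above and 13.5% below in this way. The panels were chosen by adjusted p, so their separation is a description only.

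The remaining tested heavy-chain V segments did not pass. Within family 1 all 9 tested segments had a positive log2 fold change, and 5 of them passed. Of the 9, Ighv1-55 and Ighv1-63 reached the low-count filter's minimum in 4 dTAG-13 libraries and 1 DMSO library. Ighv1-77 reached it in 4 dTAG-13 libraries and 2 DMSO libraries. For these segments the filter favoured a positive value. Of the 4 untested, Ighv1-68 was lower, at 0.0998 CPM in dTAG-13 and 0.128 CPM in DMSO libraries, and the others had higher means after dTAG-13. Ighv1-53, which did not pass, had the lowest value of the 9 at 0.13 ± 0.40 (SE, edgeR adjusted p = 0.858). The 3 tested segments of other families had values below 0, none past the threshold in edgeR or DESeq2 and none with an unadjusted p below 0.05. The untested segments of other families went both ways. Ighv11-2 had 38 counts in the dTAG-13 libraries and 11 in the DMSO libraries, Ighv8-4 had 25 and 10, and Ighv2-2 had 17 and 21. Ighv14-2 measured 1.55, 1.56, 1.76 and 2.40 CPM in the dTAG-13 libraries, against 1.93, 2.35, 1.62 and 1.57 CPM in the DMSO libraries, a log2 fold change of -0.03 ± 0.23 (SE, edgeR adjusted p = 0.942). Ighv8-6 measured 1.09, 1.07, 0.934 and 1.43 CPM in the dTAG-13 libraries, against 0.933, 1.55, 1.07 and 1.38 CPM in the DMSO libraries, a log2 fold change of -0.13 ± 0.27 (SE, edgeR adjusted p = 0.788). Both overlapped between the groups. Ighv8-9, the lowest of the 3, had a log2 fold change of -0.50 ± 0.46 (SE, edgeR adjusted p = 0.474). It reached the low-count filter's minimum in 1 dTAG-13 library and 3 DMSO libraries, so for it the filter favoured a value below 0. Whether family 1 differed from the other families was not tested.

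The segments named only by GENCODE vM21 that could be tested gave values of the same direction. Of 6 tested, 4 rose and 0 fell (edgeR, with 5 higher and 0 lower at an unadjusted p below 0.05, and 5 higher and 0 lower by DESeq2), against 14.3% higher and 14.0% lower among all genes tested. The log2 fold changes of the 6 that passed the filter lay between 0.78 and 1.61, and their median was 0.88. Of the 12 untested, Ighv1-11 went the other way, with 5 counts in the dTAG-13 libraries and 20 in the DMSO libraries. Ighv5-4 was nearly level at 0.0875 CPM in dTAG-13 and 0.0856 CPM in DMSO libraries. The others had higher means in the dTAG-13 libraries. Ighv1-72 measured 1.06, 1.15, 1.22 and 1.14 CPM in the dTAG-13 libraries, against 0.173, 0.449, 0.522 and 0.324 CPM in the DMSO libraries, a log2 fold change of 1.61 ± 0.34 (SE, edgeR adjusted p = 0.000603). Ighv1-62-1 had 0.89 (edgeR adjusted p = 0.0057), Ighv1-73 had 1.06 (edgeR adjusted p = 0.0414) and Ighv8-11 had 0.87 (edgeR adjusted p = 0.0371) on the same scale. Ighv8-11 is thus a segment outside family 1 that rose. These segments are not independent of the ones above, since near-identical copies stand in both sets: Ighv1-73 is the nearest copy of Ighv1-63, at 97.2% identity. Ighv1-62-1 is overlapped on the opposite strand by Gm19331. In exonic counts Gm19331 had a log2 fold change of 0.67 ± 0.26 and did not pass (SE, edgeR adjusted p = 0.0576), with overlapping groups. Its whole-gene counts less its exonic counts gave a log2 fold change of 1.21 ± 0.24 (SE, edgeR adjusted p = 0.000587). The part of Gm19331 in the value of Ighv1-62-1 was not tested.

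The position of the heavy-chain V segments was set beside their change. Measured from the start of Ighj4, the tested segments lie 566 to 2433 kb upstream, 1 of the 12 within 1000 kb and 11 beyond 1500 kb. The 5 that rose lie 2067 to 2433 kb away, and the 4 from GENCODE 1958 to 2362 kb away. Across segments the Spearman correlation of distance with log2 fold change was 0.45 (Pearson 0.46) over the 12 segments and 0.54 (Pearson 0.50) over these with the 5 tested heavy-chain segments named only by GENCODE. This is a description, since the segments share libraries and sequence, and since Ighv14-2 is the single tested point nearer than 1500 kb.

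**Figure D2:**
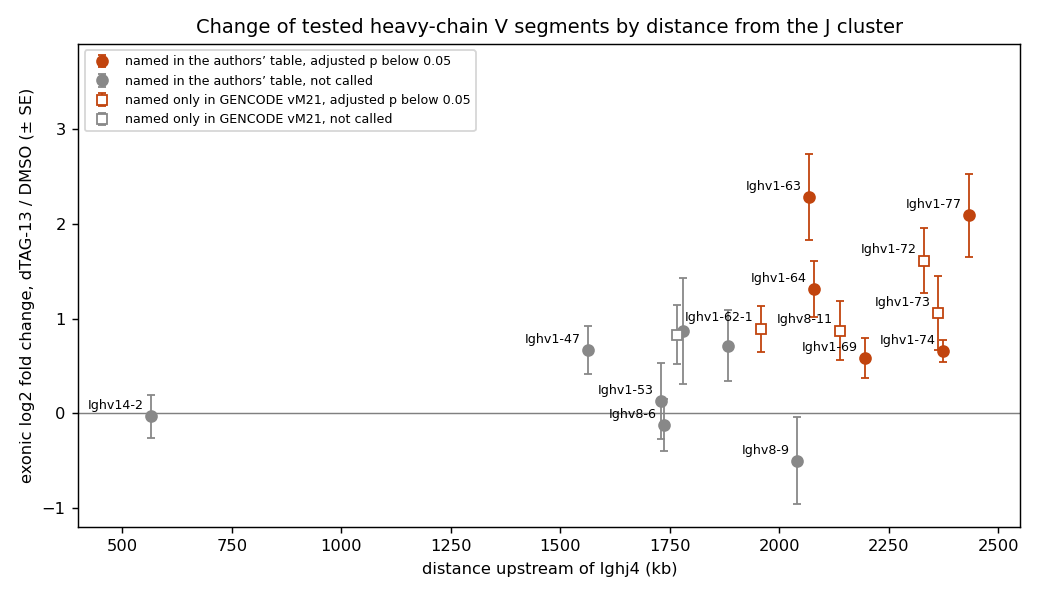
Exonic log2 fold change, dTAG-13 over DMSO, with its standard error, for the 17 tested heavy-chain V segments by distance upstream of Ighj4 in kb. Filled circles are segments named in the authors' table, open squares those named only by GENCODE vM21, and red marks an adjusted p below 0.05. All 9 red points lie at 1958 kb or farther, and 3 grey points lie below 0.

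The D, J and constant segments of the heavy chain did not pass the test. Of the 6, 0 rose and 0 fell in edgeR and in DESeq2, and 1, Ighg2b, had an unadjusted p below 0.05 in both. Ighd1-1, the D segment, measured 8.92, 6.63, 8.41 and 7.26 CPM in the dTAG-13 libraries, against 7.32, 8.84, 7.22 and 9.16 CPM in the DMSO libraries, a log2 fold change of -0.06 ± 0.12 (SE, edgeR adjusted p = 0.762). Ighj4 measured 3.62, 4.95, 4.67 and 5.34 CPM in the dTAG-13 libraries, against 5.04, 3.9, 4.69 and 4.62 CPM in the DMSO libraries, a log2 fold change of 0.02 ± 0.15 (SE, edgeR adjusted p = 0.934). The groups overlapped for both. Ighj3 had 2.12 ± 0.52 CPM in dTAG-13 libraries and 2.0 ± 0.358 CPM in DMSO libraries, and Ighj2 had 0.301 ± 0.193 CPM in dTAG-13 libraries and 0.339 ± 0.128 CPM in DMSO libraries (SD, n = 4 each, edgeR adjusted p = 0.808 for Ighj3 and 0.866 for Ighj2).

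Ighd, the constant part of IgD, a receptor class of mature B cells, measured 9.32, 13.5, 13 and 13.6 CPM in the dTAG-13 libraries, against 12.1, 10.4, 14.0 and 11.0 CPM in the DMSO libraries. Its log2 fold change of 0.05 ± 0.11 did not pass (SE, edgeR adjusted p = 0.772), with dTAG-13 replicate 1 the lowest of all 8. Ighg2b, the constant part of IgG2b, measured 1.25, 0.638, 0.545 and 0.543 CPM in the dTAG-13 libraries, against 0.518, 0.483, 0.183 and 0.378 CPM in the DMSO libraries. The groups did not overlap, but the log2 fold change of 0.95 ± 0.41 missed the threshold (SE, edgeR adjusted p = 0.0865), and without dTAG-13 replicate 1 it was 0.58.

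In the kappa locus the constant segment Igkc rose. It lies at chr6:70726435-70726966 on the plus strand, encodes the constant domain of the kappa light chain and had the most counts of all 64 segments. It measured 36.0, 31.5, 34.1 and 33.8 CPM in the dTAG-13 libraries, against 26.8, 29, 27.4 and 27.6 CPM in the DMSO libraries. No library of one group reached into the range of the other, with a log2 fold change of 0.29 ± 0.06 (SE, edgeR adjusted p = 0.000167), a 1.22-fold rise. None of its 50-base windows occurs in another gene, but Gm30211, a predicted gene on the same strand, spans Igkc and the 5 J segments. The exons of Gm30211 measured 4.65, 6.38, 6.25 and 6.48 CPM in the dTAG-13 libraries, against 3.70, 4.11, 4.04 and 3.16 CPM in the DMSO libraries, a log2 fold change of 0.66 ± 0.14 (SE, edgeR adjusted p = 0.000698). How reads were shared between Gm30211 and the segments inside it was not given in the sources used here, and its part in the rise of Igkc was not tested.

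The kappa J segments, the short pieces joined to a kappa V segment, gave no exonic call, with 0 of 5 past the threshold in edgeR and DESeq2 and 1, Igkj1, at an unadjusted p below 0.05 in each. Igkj1 measured 0.353, 0.791, 0.597 and 0.743 CPM in the dTAG-13 libraries, against 0.276, 0.345, 0.443 and 0.297 CPM in the DMSO libraries, a log2 fold change of 0.85 ± 0.39 (SE, edgeR adjusted p = 0.115). Only dTAG-13 replicate 1 fell into the range of the DMSO libraries. Counted over the whole gene, which for this segment gave 1097 counts against 139 exonic ones, Igkj1 rose by 0.57 on the log2 scale (edgeR adjusted p = 0.0129). Igkj2, Igkj3, Igkj4 and Igkj5 had exonic log2 fold changes between -0.13 and 0.19, with adjusted p from 0.756 to 0.917 (edgeR). Their means lay between 0.678 and 0.910 CPM in dTAG-13 libraries and between 0.613 and 0.793 CPM in DMSO libraries. The spread among the dTAG-13 libraries was wide, for example from 0.381 to 1.00 CPM for Igkj5.

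**Figure D3:**
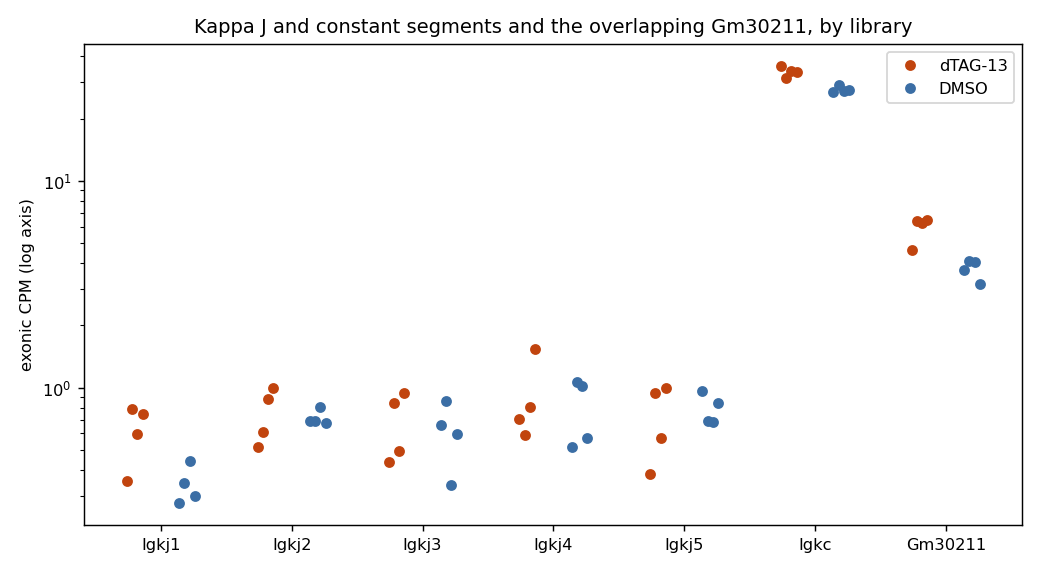
Exonic CPM of the 5 kappa J segments, Igkc and the overlapping predicted gene Gm30211 on a log axis, 1 point per library, dTAG-13 left of DMSO for each gene. The groups are apart for Igkc and Gm30211 and overlap for each of the 5 J segments.

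Of 16 tested kappa V segments, 0 rose and 1 fell, against 14.3% higher and 14.0% lower among all genes. DESeq2 gave the same 0 and 1, and at an unadjusted p below 0.05 edgeR had 0 higher and 2 lower. The segment that fell, Igkv1-35, encodes a kappa variable domain and has a nearly unique sequence. It measured 0.136, 0.179, 0.234 and 0.0571 CPM in the dTAG-13 libraries, against 1.04, 0.759, 0.913 and 0.838 CPM in the DMSO libraries, a log2 fold change of -2.51 ± 0.42 (SE, edgeR adjusted p = 3.82e-05). These are 23 counts in the dTAG-13 libraries and 118 in the DMSO libraries, and the highest dTAG-13 library lay well below the lowest DMSO library. It reached the minimum of the low-count filter in the DMSO libraries only, so it could enter the test only by being lower after dTAG-13.

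Igkv14-111 was the most abundant kappa V segment per length, at 21.5 ± 3.68 CPM per kb in dTAG-13 libraries and 22.6 ± 3.52 CPM per kb in DMSO libraries (SD, n = 4 each). It measured 6.93, 9.36, 6.62 and 8.80 CPM in the dTAG-13 libraries, against 7.39, 7.35, 10.1 and 8.43 CPM in the DMSO libraries, a log2 fold change of -0.08 ± 0.13 (SE, edgeR adjusted p = 0.716). It took 36.9% of the kappa V counts in dTAG-13 libraries (95% exact binomial interval 35.2% to 38.6%) and 36.8% in DMSO libraries (35.1% to 38.5%). None of its 50-base windows occurs in another gene, and the groups overlapped.

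Igkv1-110, Igkv3-7, Igkv6-32, Igkv3-10, Igkv3-4 and Igkv3-12, the others with high counts or means, had log2 fold changes between -0.42 and 0.34, none past the threshold (edgeR adjusted p from 0.339 to 0.976). Igkv1-110 measured 2.86 ± 0.508 CPM in dTAG-13 libraries and 2.91 ± 0.175 CPM in DMSO libraries, and Igkv3-7 measured 2.54 ± 0.242 CPM in dTAG-13 libraries and 2.77 ± 0.371 CPM in DMSO libraries (SD, n = 4 each). Over the 16 tested kappa V segments the median log2 fold change was 0.0014, with 8 above 0 and 8 below. The other 15 kappa V segments had too few counts for a test. Among those, Igkv1-135 with 0.122 ± 0.0503 CPM in dTAG-13 libraries and 0.322 ± 0.0742 CPM in DMSO libraries, and Igkv2-107 with 0.134 ± 0.057 CPM in dTAG-13 libraries and 0.330 ± 0.0996 CPM in DMSO libraries (SD, n = 4 each), were lower in every dTAG-13 library than in any DMSO library. Of all genes tested in exonic counts, 13.5% were lower in this way. Igkv1-135 had 18 counts in the dTAG-13 libraries and 42 in the DMSO libraries, and Igkv2-107 had 20 and 43. In whole-gene counts the groups overlapped for Igkv2-107. Other untested kappa V segments had more counts in the dTAG-13 libraries than in the DMSO libraries. Among them Igkv6-29 had 18 and 3, Igkv8-21 had 20 and 5, Igkv4-54 had 21 and 7 and Igkv19-93 had 30 and 11. The groups overlapped for each of these, and the rest lay on both sides. All of these segments were named after their values were seen. Igkv3-5, likewise, had the other unadjusted p below 0.05 in edgeR, with 0.193 ± 0.0993 CPM in dTAG-13 libraries and 0.398 ± 0.165 CPM in DMSO libraries (SD, n = 4 each) and a log2 fold change of -1.04 ± 0.48 (SE, edgeR adjusted p = 0.118).

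The lambda locus was close to the limit of detection. Iglc3, a lambda constant segment at chr16:19065230-19065681 on the minus strand, measured 0.299, 0.587, 0.389 and 0.343 CPM in the dTAG-13 libraries, against 0.242, 0.104, 0 and 0.0541 CPM in the DMSO libraries. The lowest dTAG-13 library stood just above the highest DMSO library, with a log2 fold change of 2.1 ± 0.61 (SE, edgeR adjusted p = 0.00948). It rests on 61 counts in the dTAG-13 libraries and 12 in the DMSO libraries, it reached the minimum of the low-count filter in the dTAG-13 libraries only, and its call was lost without dTAG-13 replicate 2 (edgeR adjusted p = 0.0502). Without DMSO replicate 1 the log2 fold change was 2.98. Iglv1, a lambda V segment, had 31 counts in the dTAG-13 libraries and 5 in the DMSO libraries and was not tested. It measured 0.245, 0.306, 0.208 and 0.0571 CPM in the dTAG-13 libraries, against 0, 0, 0.130 and 0 CPM in the DMSO libraries. Both segments lie opposite 2010309G21Rik, a gene on the other strand, which rose by 0.71 ± 0.17 on the log2 scale (SE, edgeR adjusted p = 0.00187) with 3.99 ± 0.483 CPM in dTAG-13 libraries and 2.45 ± 0.218 CPM in DMSO libraries (SD, n = 4 each). The libraries were stranded, but the strand setting of the counting was not given in the sources used here, so reads of the opposed genes cannot be told apart.

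Summed over a class, the heavy-chain V segments were higher in every dTAG-13 library than in any DMSO library. They summed to 21.9, 23.0, 23.0 and 23.3 CPM in the dTAG-13 libraries, against 13.6, 16.1, 15.7 and 14.2 CPM in the DMSO libraries, a ratio of 1.53. The kappa V segments summed to 19.5, 23.1, 21.9 and 21.3 CPM in the dTAG-13 libraries, against 22.6, 20.5, 25.0 and 23.1 CPM in the DMSO libraries, a ratio of 0.940. The dTAG-13 and DMSO libraries thus did not overlap for heavy-chain V segments and overlapped for kappa V segments. The constant classes of the light chains hold 1 segment each and did not overlap either, with Igkc at 33.9 ± 1.85 CPM in dTAG-13 libraries and 27.7 ± 0.928 CPM in DMSO libraries, and Iglc3 at 0.404 ± 0.127 CPM in dTAG-13 libraries and 0.0999 ± 0.104 CPM in DMSO libraries (SD, n = 4 each). The heavy-chain J segments summed to 7.06 ± 1.1 CPM in dTAG-13 libraries and 6.90 ± 0.565 CPM in DMSO libraries, the kappa J segments to 3.69 ± 1.18 CPM in dTAG-13 libraries and 3.26 ± 0.297 CPM in DMSO libraries, and the 2 heavy-chain constant segments to 13.1 ± 1.71 CPM in dTAG-13 libraries and 12.3 ± 1.46 CPM in DMSO libraries (SD, n = 4 each). All 3 of these sums overlapped between the groups. All 64 segments together summed to 110.4 ± 3.65 CPM in dTAG-13 libraries and 96.1 ± 2.31 CPM in DMSO libraries, without overlap. These sums are scores over chosen members and carry no test. The 23 segments with too few counts for a test, 7 of the heavy chain, 15 of kappa and Iglv1, had 20 to 68 counts each and mean levels of 0.0705 to 0.232 CPM.

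**Figure D4:**
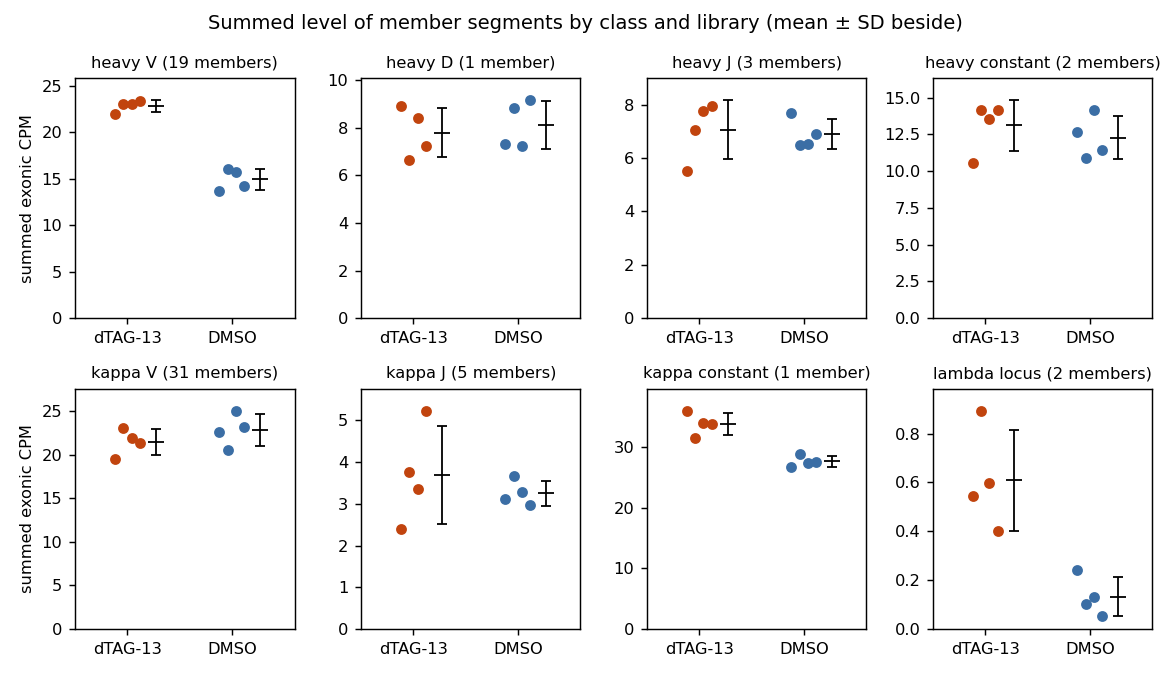
Summed exonic CPM of the segments of each class, 1 point per library on a linear axis from 0, dTAG-13 left and DMSO right, with mean and SD (n = 4) beside. The groups are apart for heavy-chain V segments, Igkc and the lambda locus and overlap in the other 5 panels.

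Whole-gene counts less exonic counts, which over most genes come from introns, left 12 of the 64 segments with enough counts. Of these 1 rose and 0 fell in edgeR and in DESeq2 (2 and 0 at an unadjusted p below 0.05 in each), against 8.26% higher and 8.50% lower among the 11229 genes tested. In 0 of the 12 did all dTAG-13 libraries lie above all DMSO libraries, against 9.51% of genes tested. The segment was Igkj1, with 17.0, 11.4, 15.2 and 9.23 CPM in the dTAG-13 libraries, against 7.48, 9.28, 8.11 and 10.5 CPM in the DMSO libraries, a log2 fold change of 0.57 ± 0.19 (SE, edgeR adjusted p = 0.0411). The groups overlapped, and the call was lost without dTAG-13 replicate 1 or 3 or without DMSO replicate 1, 2 or 3 (edgeR adjusted p between 0.0552 and 0.15), as it was with a replicate block (edgeR adjusted p = 0.0658). These CPM are relative to the smaller total of such counts and cannot be set beside exonic ones.

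This difference does not measure unspliced RNA in most of the segments concerned. Of the 13 segments with a single annotated exon, and so with no intron, 11 had more whole-gene than exonic counts. The excess was 10135 of 10712 whole-gene counts (94.6%) for Ighj3, 7891 of 10141 (77.8%) for Ighd1-1, 1868 of 1959 (95.4%) for Ighj2 and 958 of 1097 (87.3%) for Igkj1, summed over 8 libraries. How reads that cross the edge of a short segment were counted was not given in the sources used here. For Ighj3 the difference was 118 ± 27.3 CPM in dTAG-13 libraries and 118 ± 15.8 CPM in DMSO libraries, and for Ighd1-1 it was 89.8 ± 22.6 CPM in dTAG-13 libraries and 94.1 ± 14.1 CPM in DMSO libraries (SD, n = 4 each), with log2 fold changes of -0.002 and -0.07 and no call. Ighd, which has introns, had 68.3 ± 6.59 CPM in dTAG-13 libraries and 70.0 ± 4.21 CPM in DMSO libraries by this measure (SD, n = 4 each, log2 fold change -0.03 ± 0.08, edgeR adjusted p = 0.849).

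Genes that act on these loci or with their products come from fixed lists, whose counts stand against 14.3% higher and 14.0% lower among all genes tested. Of 14 tested genes of the recombination and class switch machinery, 0 rose and 7 fell in edgeR and in DESeq2 (1 and 7 at an unadjusted p below 0.05), with a median log2 fold change of -0.13. Rag1, the cutting subunit of the recombinase, had 32.2 ± 4.45 CPM in dTAG-13 libraries and 67.1 ± 3.70 CPM in DMSO libraries (SD, n = 4 each, log2 fold change -1.06), Rag2, its partner, fell by 1.21 and Lig4, the ligase of end joining, fell by 0.99 on the log2 scale. Dntt, which adds bases at the joints, had a log2 fold change of 0.30 and did not pass (edgeR adjusted p = 0.463). Of 9 tested genes in the list of the mu heavy chain and its partners, 7 fell and 1 rose, Jchain, the joining chain of IgM and IgA polymers, at 2.66 ± 0.404 CPM in dTAG-13 libraries and 1.11 ± 0.614 CPM in DMSO libraries (SD, n = 4 each, log2 fold change 1.27). Ighm, the member that did not pass, had a log2 fold change of -0.0041 ± 0.03 (SE, edgeR adjusted p = 0.949).

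Of 29 transcription factors and architecture proteins known for work at these loci, 6 rose, 13 fell and 10 did not pass, beside the same 14.3% and 14.0% of all genes. Ebf1 RNA was among those that rose, at 767 ± 38.4 CPM in dTAG-13 libraries and 622 ± 13.9 CPM in DMSO libraries (SD). Its log2 fold change was 0.30 (edgeR adjusted p = 2.12e-07). Pou2f2, an octamer-binding factor, rose by 0.46 on the log2 scale, while Pou2af1, its coactivator, fell by 0.46. Pax5, which promotes heavy-chain V to DJ joining, fell by 0.49 and Ezh2, a histone methyltransferase, fell by 0.71. The architecture proteins Ctcf and Wapl fell by 0.17 and 0.20, while Yy1 had 0.02 and did not pass (edgeR adjusted p = 0.777). Spi1, a factor that binds immunoglobulin enhancers, rose by 0.51. The list of plasma cell markers, cells that carry much immunoglobulin RNA, had 1 higher and 4 lower of 5 tested, summed to 452 to 488.2 CPM in dTAG-13 libraries and 601 to 633 CPM in DMSO libraries, and its defining member Prdm1 was at 0 in all 8. The list of mature B cell markers had 2 higher, Cd74 and H2-Ab1, and 0 lower of 5 tested (edgeR and DESeq2, 3 and 0 at an unadjusted p below 0.05). It summed to 86.0 to 90.9 CPM in dTAG-13 libraries and 75.1 to 75.9 CPM in DMSO libraries. Its member Fcer2a had 0 exonic counts in all 8. Ms4a1, also untested, went the other way, with 3 counts in dTAG-13 libraries and 14 in DMSO libraries. The T cell list had no tested gene and summed to 0.051 to 0.514 CPM in dTAG-13 libraries and 0 to 0.207 CPM in DMSO libraries. Of the myeloid and erythroid lists Lyz2 rose by 1.26 and Klf1 fell by 2.98 on the log2 scale, both under 1 CPM. Lyz2 had 86 counts in dTAG-13 libraries and 32 in DMSO libraries, and Klf1 had 13 and 94. Both entered the test through the group in which they are high. Klf1 reached at most 0.182 CPM in a dTAG-13 library, below the low-count filter's minimum of 0.266 CPM. The part of these genes in the values of the segments was not tested.

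The authors' deposited table gives 9 of the 64 segments an exonic adjusted p below 0.05, 8 positive and 1 negative. The 8 segments called here are among them with the same direction, and Ighv1-47 is the other one. For whole-gene less exonic counts the authors' deposited table calls 1 segment, Igkj1.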

How the data were processed

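Libraries were stranded and depleted of ribosomal RNA, per the labels' protocols. The authors deposited raw read counts of exons and of whole genes, and a table of their own comparison with log2 fold changes, p-values and adjusted p-values for exonic and for intronic reads, per the file headers. Subread 2.0.0, featureCounts, STAR 2.7.4a and DESeq2 and the build GRCm38.p4 are named in the submitters' processing notes. For the annotation release, the strand setting and reads that match several segments, no statement was given in the sources used here.

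Members and lists were chosen with earlier results of these data known. The quasi-likelihood F test of edgeR 4.0.16 (R 4.3.3) was fitted to the counts of all genes, with TMM factors, the filterByExpr filter (at least 10 counts, total of 15), treatment as the only term and Benjamini-Hochberg adjustment over all genes at a threshold of 0.05. The design text calls the 4 libraries of a group biological replicates, and p-values measure the spread between these libraries. Whole-gene minus exonic counts were fitted in the same way. The procedure was tested on simulated data. Segment coordinates, transcripts and shared 50-base windows came from GENCODE vM21 on GRCm38, in which all 64 members were found by gene ID. Named are every D, J and constant member, for each V class the 8 with the highest mean CPM, and per locus up to 6 called members with the smallest p in each direction, as well as genes of the lists. Other genes named overlap a member, had an extreme value or were untested segments, and were chosen after their values were seen. Alternatives were RLE factors, plain totals, DESeq2 1.42.0, other low-count filters, whole-gene counts, libraries left out, removal of Gm26917 and Gm42418, a minimum of 100 counts for members, and a replicate block. Promoter sequence of the segments was not used here.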

Additional observations from a re-analysis of the deposited data

Results flagged for a closer look

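In 5 of 62 groups of 4 libraries, each a member with its values in dTAG-13 or in DMSO, 1 library stood far from the other 3, measured as its gap to the nearest of them over the whole range. Chance flags about 1 in 20 such groups where the values follow a normal distribution. Segments with few counts need not follow it, so 5 of 62 cannot be judged by this share. Ighd, the constant part of IgD, measured 9.32 CPM in dTAG-13 replicate 1, where the other dTAG-13 libraries had 13 to 13.6 CPM. Ighg2b measured 1.25 CPM in the same library, where the others had 0.543 to 0.638 CPM, so this library was low for one heavy-chain constant segment and high for the other. Igkv6-32 measured 1.95 CPM in dTAG-13 replicate 3, where the others had 1.46 to 1.5 CPM. Igkj2 measured 0.808 CPM in DMSO replicate 3, where the others had 0.676 to 0.691 CPM. Iglv1 measured 0.130 CPM in DMSO replicate 3 and 0 CPM in the other DMSO libraries.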

How the results depend on the processing

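Counts limited the precision, and 23 segments could not be tested. Sequence shared between segments, overlapping genes and the unstated strand setting limit what a single value stands for. Exonic calls were 7 higher and 1 lower, and between 5 and 9 higher in every alternative. The number lower was 0 where at least 1 CPM in 4 libraries was asked, which leaves Igkv1-35 out, and 1 in the others. Ighv1-69 also lost its call with no low-count filter (edgeR adjusted p = 0.0588) and with a replicate block (0.0552), in which 6 members were called higher and 1 lower. The calls of Ighv1-74, Ighv1-63, Ighv1-77, Ighv1-64, Igkc and Igkv1-35 held in every alternative that tested them, and DESeq2 gave no adjusted p for Iglc3. Ighv1-47 passed with plain library totals (0.0434), DESeq2 (0.0315), at least 1 CPM in 4 libraries (0.0261), whole-gene counts (0.0485), without Gm26917 and Gm42418 (0.0475), without dTAG-13 replicate 2 (0.0499) and without DMSO replicate 4 (0.0397), while its log2 fold change lay between 0.60 and 0.79 throughout. For whole-gene less exonic counts the number higher was 2 with no low-count filter, 0 with the replicate block and 0 to 2 with libraries left out (2 without dTAG-13 replicate 4), the second being Ighj4. The replicate numbers are shared labels only: deviations of libraries with the same number correlated between -0.0227 and 0.0451, and not every library correlated best with its own number. Of the summed levels as log2 ratios, heavy constant was 0.93 without its leading member, the heavy locus 0.071 with whole-gene counts and 0.34 without its leading member, the kappa locus -0.053 without Igkc, and all members 0.10 with whole-gene counts, while heavy V lay between 0.57 and 0.65. Signs turned only for changes that did not pass the test. With whole-gene counts the exonic value was 0.078 for Ighj2, -0.033 for Ighj3 and -0.0069 for Ighd, and with the replicate block it was -0.011 for Igkv3-12. The whole-gene less exonic change of Ighj3 was 0.0028 with RLE factors, 0.041 with plain totals and 0.004 with DESeq2, and that of Ighd was 0.012 with plain totals. With 1 library left out in turn the exonic log2 fold change ranged from -0.13 to 0.011 for Ighd1-1, -0.44 to 0.14 for Ighj2, -0.026 to 0.20 for Ighj3, -0.047 to 0.13 for Ighj4, -0.0013 to 0.17 for Ighd, -0.095 to 0.21 for Igkj2, -0.051 to 0.37 for Igkj3, -0.18 to 0.35 for Igkj4, -0.32 to 0.080 for Igkj5, -0.19 to 0.094 for Ighv14-2, -0.25 to 0.62 for Ighv1-53, -0.17 to 0.032 for Igkv14-111, -0.13 to 0.043 for Igkv1-110, -0.44 to 0.17 for Igkv3-4 and -0.48 to 0.29 for Igkv3-12, and the whole-gene less exonic one from -0.18 to 0.047 for Ighd1-1, -0.035 to 0.31 for Ighj2, -0.12 to 0.10 for Ighj3, -0.083 to 0.038 for Ighd, -0.33 to 0.19 for Igkj4, -0.061 to 0.42 for Igkj5 and -0.11 to 0.29 for Igkc. The cause was not tested.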
